A study of Mus musculus with 8 samples.

Results

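T cells and NK cells carry surface molecules, signalling adaptors and cytotoxic proteins, many of which other leukocytes lack, and 41 genes used to describe these cells were followed here in RNA of tumor-associated macrophages (TAMs). The 41 were named by gene symbol, and each matched 1 of the 21051 genes that a full sample table lists. They fall into 10 roles, from the T cell receptor complex and its coreceptors to granule effectors, NK cell receptors and a lymphocyte GTPase.

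The study asks what the loss of collectin-11 (CL-11), a soluble C-type lectin encoded by Colec11, does to TAMs in growing B16 melanomas. Both groups were male C57BL/6 mice of 8 to 10 weeks, the mutant back-crossed onto that strain. TAM-KO came from Colec11-/- mice, which carry the deletion in all cells and not in macrophages alone, and TAM-WT from wild-type littermates. B16 melanoma cells, a pigmented line of C57BL/6 origin, were injected s.c. in both groups, and tumors were taken on day 14 with no further treatment. Cells positive for CD45 and F4/80 were sorted, and total RNA of each mouse was sequenced as 1 library, giving 4 TAM-WT libraries (WT1 to WT4) and 4 TAM-KO libraries (KO1 to KO4). CD45, encoded by Ptprc, is shared by all leukocytes including T cells and NK cells, whereas F4/80, encoded by Adgre1, marks mouse macrophages.

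A T cell recognizes peptide on MHC molecules through a receptor that signals by way of CD3 chains, the kinases Lck and Zap70 and the adaptor Lat, with CD4 or CD8 as coreceptor. NK cells carry no such rearranged receptor and weigh activating against inhibitory receptors, many of them encoded by Klr genes. Cytotoxic T cells and NK cells share perforin, granzymes and interferon-gamma, and in tumors T cells often carry inhibitory receptors such as PD-1, CTLA-4 and LAG-3.

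The targeted gene was at the edge of detection in every library. Colec11 had 1, 4, 0 and 1 expected counts in WT1 to WT4 and 1 count in each of KO1 to KO4. At this depth the gene cannot serve as a check of genotype. The sorted cells carried macrophage transcripts throughout. Adgre1 FPKM, the level per kilobase of transcript and scaled to the mapped fragments of the library, was 218, 186, 198 and 239 in WT1 to WT4 and 200, 182 and 199 in KO2 to KO4. Each of the 14 macrophage markers was detected with more than 3 reads in a library, and Lyz2, the macrophage lysozyme, had the highest level, between 4119 FPKM in KO3 and 8944 FPKM in WT3. Reads assigned to listed genes ranged from 16225362 in KO2 to 17280267 in WT4 among the 7 full tables.

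Several libraries stood apart and bear on what follows. The KO1 table lists 15740 genes and lacks a run of 5311. It holds 12 of the 41 genes. For 27 others the KO1 value comes from the series-wide table, which the authors restricted to genes differing by genotype, and for Cd4 and Klrb1c only KO2 to KO4 were used. WT1 had a higher FPKM than each of WT2 to WT4 for 39 of the 41 genes, the exceptions being Cd28 and Il7r, where 27.5% of all 16786 measured genes showed that order. KO1 also had more neutrophil transcripts than any other library. Calls are therefore counted with WT1 and without it, fold changes are given both ways for the tested lymphocyte genes described library by library, and the test used the 12 genes of the KO1 table on 8 libraries and the other genes on 7, without KO1.

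Most of the lymphocyte genes were higher in TAM-KO. The FPKM of every TAM-KO library lay above that of every TAM-WT library for 27 of the 41 genes, against 10.7% of all measured genes. The reverse order, every TAM-KO library below every TAM-WT library, held for 0 of the 41 genes and for 4.21% of all genes. Against WT2 to WT4 alone, 35 of the 41 genes were higher in every TAM-KO library, against 15.6% of all genes; the 6 others were Cd4, Cd28, Il7r, Ncr1, Klrb1c and Klrd1. WT1 lay below the TAM-KO range for 27 genes, inside it for 11 and above it for 3, namely Cd4, Il7r and Klrb1c. In bulk RNA, more cells of a type and more RNA per cell cannot be told apart.

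Of the 41 genes, 38 passed the filter on low counts and were tested, 12 on 8 libraries and 26 on 7, and Gzma, Ncr1 and Klrb1c fell under it. By edgeR's quasi-likelihood test, with an adjusted p (Benjamini-Hochberg over all 12412 genes tested) of at most 0.05 and a fold change of at least 2, 11 were higher in TAM-KO, where 1.41% of all genes tested were. They were Cd2, Cd6, Thy1, Ctla4, Pdcd1, Lag3, Zap70, Sh2d2a, Eomes, Nkg7 and Gimap4, with log2 fold changes between 2.14 (SE 0.50, Lag3) and 3.38 (SE 0.78, Nkg7). For each of these genes, every TAM-KO library lay above every TAM-WT library. By adjusted p alone 14 genes were higher, where 4.58% of all genes tested were, since Tigit, Foxp3 and Tcf7 passed it with a fold change under 2. Called lower were 0 by edgeR, where 1.12% of all genes tested were, although Cd28 and Il7r had a lower level at an unadjusted p under 0.05. DESeq2 called 0 lower and limma voom 1, Il7r. Limma voom, here and below, also weights each library by its quality, so its counts differ from edgeR's in 2 choices. Over all 12412 genes tested, higher and lower together, edgeR called 314, DESeq2 438, limma voom 653 and limma on log2(FPKM + 1) 200. Without WT1 edgeR called 418 of 12466. These counts over all genes stand beside the counts by role below. The adjusted p of 18 further genes lay between 0.05 and 0.1. Over the 38 genes tested the median log2 fold change was 2.55, and over all genes tested it was 0.0. Without WT1 these medians were 4.13 and 0.01.

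The number of calls rested on single libraries. Without WT1, 31 of the 38 genes were called higher, where 1.82% of 12466 genes tested were, and the 11 were among them. Without WT2 18 genes were called, 17 higher and Il7r lower. Without KO1 3 were called, Cd2, Ctla4 and Lag3, and without KO4 10, the 11 less Eomes. Genes that the KO1 table lacks were fitted without KO1 in the main fit too. For Cd2, Ctla4, Lag3, Cd6, Eomes and Gimap4, leaving out KO1 therefore changed only the adjusted p. Over all genes, higher and lower together, the main fit called 314 of 12412. The fits without WT2, KO1 and KO4 called 523 of 12436, 226 of 12462 and 348 of 12524. Without WT3, WT4, KO2 or KO3 edgeR called 0 of the 38 genes, with 33, 32, 28 and 31 at an unadjusted p under 0.05. Over all genes these fits called 59 of 12485, 164 of 12464, 32 of 12488 and 28 of 12482. In the fits without 1 library the log2 fold change was never below 1.89 for Lag3 and 2.97 for Nkg7. The losses of calls bear on every call given for a single gene.

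**Figure D1:**
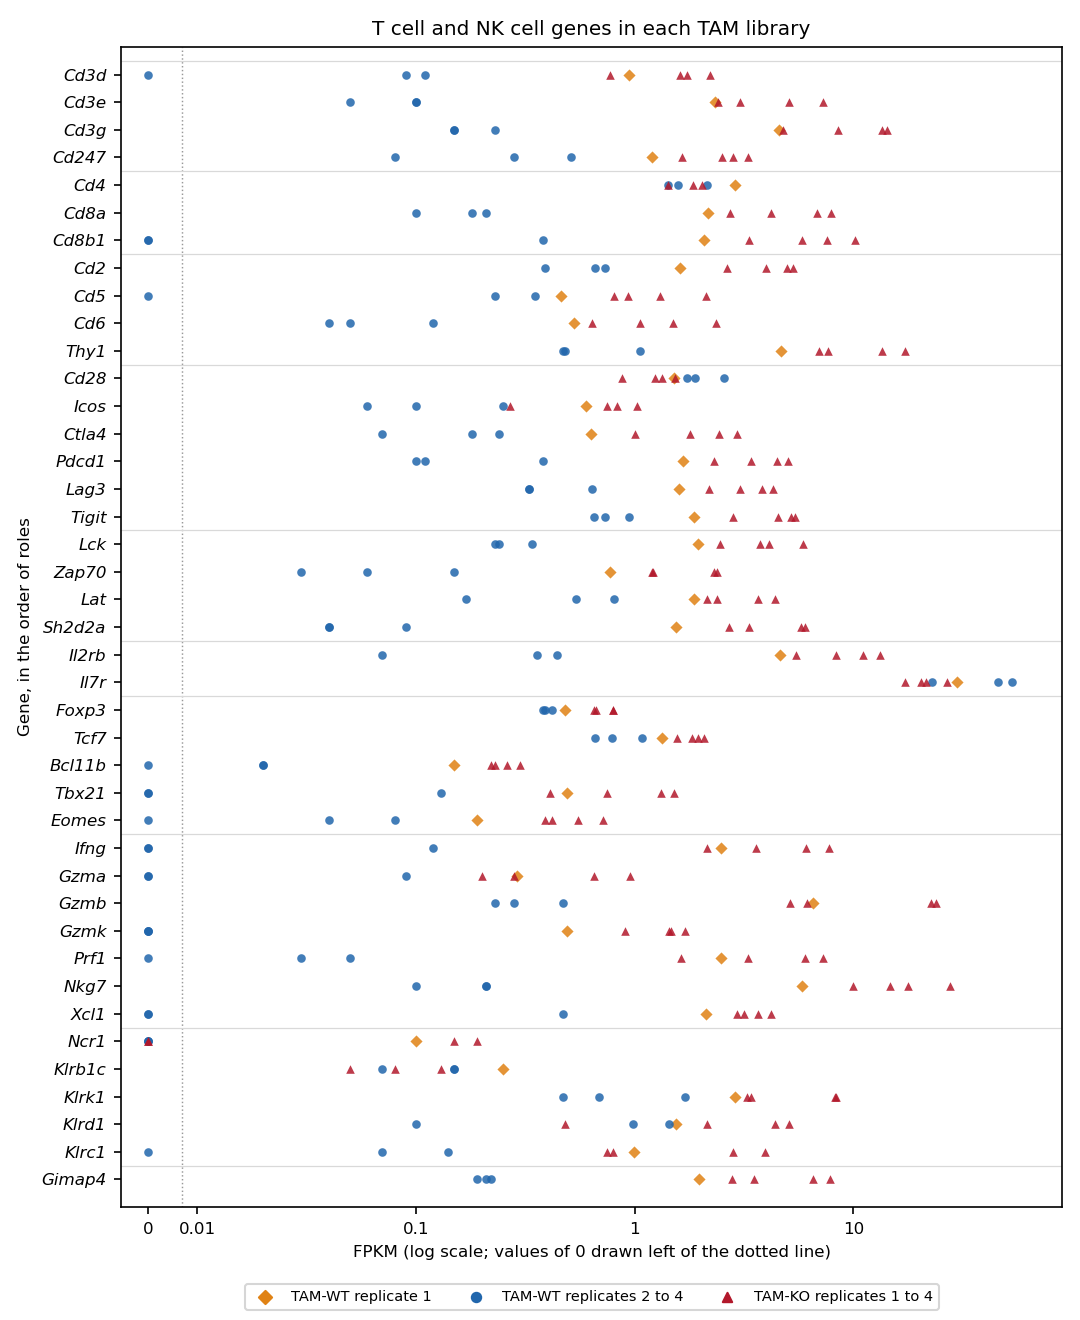
FPKM of each of the 41 genes on a logarithmic axis, 1 line per gene grouped by role, with points for WT1, for WT2 to WT4 and for KO1 to KO4. For 39 genes WT1 lies above the other TAM-WT libraries, and for 27 every TAM-KO point lies above every TAM-WT point.

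The T cell receptor complex was present at low levels in TAM-WT libraries other than WT1. Its 4 genes encode CD3 chains that carry the receptor's signal into the cell. Cd3g FPKM was 4.58, 0.15, 0.23 and 0.15 in WT1 to WT4 and 8.49, 14.3, 13.6 and 4.75 in KO1 to KO4. Cd3e FPKM was 2.33, 0.10, 0.05 and 0.10 in WT1 to WT4 and 3.02, 7.26, 5.10 and 2.42 in KO1 to KO4. For both genes WT1 came close to the lowest TAM-KO library, KO4, without reaching it, and WT2 to WT4 held no more than 3 reads each. The fitted log2 fold changes were 3.0 (SE 0.93) for Cd3g and 2.83 (SE 0.94) for Cd3e, on 7 libraries, and 5.73 (SE 0.60) and 5.7 (SE 0.59) without WT1. With WT1 neither passed edgeR's quasi-likelihood test (Benjamini-Hochberg adjusted p = 0.0731 and 0.0855), with 4 of 4 TAM-KO libraries above every TAM-WT library. Cd247, the zeta chain, was at 0.52 ± 0.49 FPKM in TAM-WT and 2.57 ± 0.70 in TAM-KO (mean ± SD, n = 4). Cd3d was at 0.29 ± 0.44 and 1.59 ± 0.60 FPKM (SD, n = 4), and WT1 exceeded KO4 for that gene. edgeR called 0 of the 4 genes, each with an unadjusted p under 0.05, DESeq2 called 1, limma voom 4, and edgeR without WT1 4.

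Of the coreceptor genes, Cd8a and Cd8b1 encode the chains of CD8, found on cytotoxic T cells, and Cd4 the coreceptor of helper T cells, which some mouse macrophages and dendritic cells also carry. Cd8b1 FPKM was 2.08, 0, 0 and 0.38 in WT1 to WT4 and 5.86, 10.1, 7.57 and 3.35 in KO1 to KO4. Cd8a FPKM was 2.16, 0.10, 0.21 and 0.18 in WT1 to WT4 and 4.22, 7.95, 6.8 and 2.72 in KO1 to KO4. Both CD8 chains were higher in every TAM-KO library than in any TAM-WT library, with WT1 again nearest. Cd4 FPKM was 2.87, 1.43, 2.15 and 1.58 in WT1 to WT4 and 1.85, 1.43 and 2.04 in KO2 to KO4. The Cd4 groups overlapped, WT1 was highest, and the fitted log2 fold change on 7 libraries was -0.29 (SE 0.27), and -0.09 (SE 0.25) without WT1. In WT2 to WT4 the Cd4 level per length was above that of either CD8 chain, and in KO2 to KO4 below both. The fitted log2 fold changes on 7 libraries were 3.41 (SE 0.93) for Cd8b1 and 3.04 (SE 0.83) for Cd8a, and without WT1 5.59 (SE 0.83) and 5.0 (SE 0.51). With WT1 both missed edgeR's quasi-likelihood test (Benjamini-Hochberg adjusted p = 0.0538 and 0.0544), with 4 of 4 TAM-KO libraries above every TAM-WT library. edgeR called 0 of the 3 genes, 2 with an unadjusted p under 0.05, DESeq2 called 1, limma voom 2, and edgeR without WT1 2.

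Among the surface adhesion molecules edgeR called 3 of 4 higher, where 1.41% of all genes tested were. Cd2 encodes a receptor for CD48 that helps T cells and NK cells adhere to other cells, Cd6 and Cd5 encode scavenger receptor-like molecules that tune T cell receptor signalling, and Thy1 encodes the pan-T cell antigen of the mouse. Thy1 FPKM was 4.67, 1.06, 0.48 and 0.47 in WT1 to WT4 and 7.70, 17.2, 13.5 and 6.94 in KO1 to KO4. Cd2 FPKM was 1.61, 0.39, 0.73 and 0.66 in WT1 to WT4 and 3.99, 5.31, 4.96 and 2.65 in KO1 to KO4. Cd6 FPKM was 0.53, 0.12, 0.04 and 0.05 in WT1 to WT4 and 1.06, 2.35, 1.5 and 0.64 in KO1 to KO4. In all 3 genes KO2 was highest, KO4 was the lowest TAM-KO library, and the groups did not overlap. The log2 fold changes were 2.67 (SE 0.60) for Thy1 on 8 libraries, and 2.24 (SE 0.42) for Cd2 and 2.91 (SE 0.73) for Cd6 on 7 libraries. Their adjusted p-values by edgeR's quasi-likelihood test with Benjamini-Hochberg adjustment were 0.0301, 0.0241 and 0.0452, with 4 of 4 TAM-KO libraries higher. Without WT1 the log2 fold changes were 3.95 (SE 0.43) for Thy1, 2.71 (SE 0.38) for Cd2 and 4.35 (SE 0.61) for Cd6. Cd5 was at 0.26 ± 0.20 FPKM in TAM-WT and 1.30 ± 0.60 in TAM-KO (SD, n = 4), and edgeR called it neither with WT1 nor without it, but did without WT2. DESeq2 and limma voom called all 4 adhesion genes with WT1 included.

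Of the 6 costimulatory or checkpoint receptors, edgeR, DESeq2 and limma voom each called Pdcd1, Lag3 and Ctla4 higher. Limma on log2(FPKM + 1) also called Tigit, and edgeR without WT1 also called Icos. Pdcd1 encodes PD-1, Ctla4 the CTLA-4 receptor for CD80 and CD86, and Lag3 a receptor that binds MHC class II. Pdcd1 FPKM was 1.66, 0.10, 0.11 and 0.38 in WT1 to WT4 and 3.42, 5.04, 4.47 and 2.31 in KO1 to KO4. Lag3 FPKM was 1.59, 0.33, 0.64 and 0.33 in WT1 to WT4 and 3.04, 4.31, 3.81 and 2.18 in KO1 to KO4. Ctla4 FPKM was 0.63, 0.07, 0.18 and 0.24 in WT1 to WT4 and 2.93, 1.80, 2.44 and 1.0 in KO1 to KO4. The groups did not overlap for any of the 3, and Ctla4 differed from Pdcd1 and Lag3 in that KO1, not KO2, was its highest library. The log2 fold changes were 2.66 (SE 0.62) for Pdcd1 on 8 libraries, and 2.14 (SE 0.50) for Lag3 and 2.51 (SE 0.55) for Ctla4 on 7 libraries. Their adjusted p-values by edgeR's quasi-likelihood test with Benjamini-Hochberg adjustment were 0.033, 0.0385 and 0.0334, with 4 of 4 TAM-KO libraries higher. Without WT1 the log2 fold changes were 4.11 (SE 0.45) for Pdcd1, 2.84 (SE 0.38) for Lag3 and 3.25 (SE 0.51) for Ctla4.

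Tigit encodes an inhibitory receptor for CD155, and it differed from the others by scale. Tigit FPKM was 1.88, 0.94, 0.65 and 0.73 in WT1 to WT4 and 4.51, 5.42, 5.18 and 2.81 in KO1 to KO4. The groups did not overlap on this scale, but the counts gave a log2 fold change of 0.65 (SE 0.16), and 0.76 (SE 0.15) without WT1, under the 2-fold limit. The gene overlaps Zbtb20 in the annotation, and its reads per FPKM ranged from 121 in KO2 to 426 in WT4, a 3.52-fold range. Cd28, the costimulatory receptor for CD80 and CD86, had a fitted change below 0 but was not called by edgeR, DESeq2 or limma voom. Cd28 FPKM was 1.52, 1.90, 2.56 and 1.73 in WT1 to WT4 and 1.53, 1.33, 1.24 and 0.88 in KO1 to KO4. Every TAM-KO library lay below WT2 to WT4, while WT1 lay inside the TAM-KO range, and the log2 fold change on 7 libraries was -0.87 (SE 0.24), and -0.98 (SE 0.23) without WT1. With WT1 it missed edgeR's quasi-likelihood test (Benjamini-Hochberg adjusted p = 0.056), with 3 of 4 TAM-KO libraries below every TAM-WT library. Icos, a costimulatory receptor of activated T cells, was at 0.25 ± 0.25 FPKM in TAM-WT and 0.72 ± 0.32 in TAM-KO (SD, n = 4). Its lowest TAM-KO library, KO4, lay below WT1, and edgeR called the gene without WT1 but not with it.

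Of the 4 signaling molecules, edgeR called 2 higher, where 1.41% of all genes tested were. Zap70 encodes the kinase that binds phosphorylated CD3 chains, and Sh2d2a the T cell-specific adaptor TSAd, which binds Lck. Zap70 FPKM was 0.77, 0.03, 0.15 and 0.06 in WT1 to WT4 and 1.22, 2.39, 2.32 and 1.2 in KO1 to KO4. Sh2d2a FPKM was 1.54, 0.09, 0.04 and 0.04 in WT1 to WT4 and 3.32, 6.01, 5.75 and 2.71 in KO1 to KO4. KO2 and KO3 were above KO1 and KO4 for both, and WT1 lay between the other TAM-WT libraries and the TAM-KO group. On 8 libraries the log2 fold changes were 2.72 (SE 0.64) for Zap70 and 3.09 (SE 0.77) for Sh2d2a. Their adjusted p-values by edgeR's quasi-likelihood test with Benjamini-Hochberg adjustment were 0.0338 and 0.0385, with 4 of 4 TAM-KO libraries higher. Without WT1 the log2 fold changes were 4.32 (SE 0.52) and 5.81 (SE 0.47). Lck, the kinase that starts receptor signalling, was at 0.69 ± 0.85 FPKM in TAM-WT and 4.06 ± 1.43 in TAM-KO, and the adaptor Lat at 0.85 ± 0.74 and 3.15 ± 1.07 (SD, n = 4). edgeR called neither with WT1 and both without it, whereas DESeq2 and limma voom called both with WT1 included.

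Neither of the cytokine receptors was called by edgeR or DESeq2. Il2rb encodes the beta chain that IL-2 and IL-15 share, and Il7r the alpha chain of the receptors for IL-7 and thymic stromal lymphopoietin, which is not restricted to lymphocytes. Il2rb FPKM was 4.63, 0.07, 0.44 and 0.36 in WT1 to WT4 and 8.31, 13.3, 11.1 and 5.45 in KO1 to KO4. Il7r FPKM was 29.7, 23, 45.9 and 53.3 in WT1 to WT4 and 21.6, 17.2, 20.3 and 27.0 in KO1 to KO4. Il2rb did not overlap between the groups, whereas Il7r was highest in WT3 and WT4 and overlapped, since WT2 lay below KO4. Il7r had the highest level per length of the 41 genes in every TAM-WT library. The log2 fold changes on 7 libraries were 2.77 (SE 0.90) for Il2rb and -0.94 (SE 0.33) for Il7r. Neither passed edgeR's quasi-likelihood test (Benjamini-Hochberg adjusted p = 0.0817, higher in 4 of 4 TAM-KO libraries, and 0.099, lower than WT1, WT3 and WT4 in 4 of 4). edgeR called 0 of the 2, both with an unadjusted p under 0.05, DESeq2 called 0, limma voom both, and edgeR without WT1 Il2rb alone, at a log2 fold change of 4.86 (SE 0.55), with Il7r at -1.06 (SE 0.34).

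Of the 5 transcription factors, edgeR called Eomes alone with WT1 included and 4 without WT1. With WT1, DESeq2 called Eomes and Bcl11b, limma voom these and Tbx21, and limma on log2(FPKM + 1) 0, with 5 at an unadjusted p under 0.05. Eomes encodes a T-box factor of effector CD8 T cells and NK cells. Eomes FPKM was 0.19, 0, 0.04 and 0.08 in WT1 to WT4 and 0.55, 0.72, 0.42 and 0.39 in KO1 to KO4. The TAM-KO libraries all lay above WT1, at levels below 1 FPKM. The log2 fold change on 7 libraries was 2.59 (SE 0.65; edgeR's quasi-likelihood test with Benjamini-Hochberg adjusted p = 0.0452, higher in 4 of 4 TAM-KO libraries), and 3.48 (SE 0.65) without WT1. Tbx21, which encodes the related factor T-bet, was at 0.16 ± 0.23 FPKM in TAM-WT and 1.0 ± 0.51 in TAM-KO (SD, n = 4), and KO4 lay below WT1. Bcl11b, needed for T cell commitment, was at 0.05 ± 0.07 and 0.25 ± 0.04 FPKM (SD, n = 4) with no overlap. Tcf7, which encodes TCF-1 of naive and stem-like T cells, and Foxp3, the factor of regulatory T cells, varied less between libraries than the T-box factors did. Tcf7 FPKM was 1.33, 1.08, 0.79 and 0.66 in WT1 to WT4 and 1.95, 2.08, 1.84 and 1.57 in KO1 to KO4. Foxp3 FPKM was 0.48, 0.39, 0.42 and 0.38 in WT1 to WT4 and 0.80, 0.80, 0.67 and 0.65 in KO1 to KO4. Neither gene's groups overlapped, and WT1 stood less far from WT2 to WT4 than in the CD3 genes. Their log2 fold changes on 8 libraries, 0.84 (SE 0.19) and 0.72 (SE 0.18), fell short of 2-fold, and without WT1 they were 1.05 (SE 0.16) and 0.77 (SE 0.20). Tcf7 overlaps Skp1 and Foxp3 overlaps Ccdc22 in the annotation.

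Several secreted and granule effectors were at or near 0 in WT2 to WT4. Of the 6 tested edgeR called 1 higher, where 1.41% of all genes tested were. Nkg7 encodes a membrane protein of cytotoxic granules. Nkg7 FPKM was 5.82, 0.10, 0.21 and 0.21 in WT1 to WT4 and 14.7, 27.7, 17.8 and 9.94 in KO1 to KO4. WT2 to WT4 held 1 or 2 reads each, WT1 54, and the TAM-KO libraries between 94 and 252. The log2 fold change on 8 libraries was 3.38 (SE 0.78; edgeR's quasi-likelihood test with Benjamini-Hochberg adjusted p = 0.0323, higher in 4 of 4 TAM-KO libraries), and without WT1 it was 6.41 (SE 0.54). Nkg7 had the highest mean level per length of the 41 genes in TAM-KO after Il7r.

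Gzmb, Prf1 and Ifng encode granzyme B, perforin and interferon-gamma, the main products of cytotoxic lymphocytes. Gzmb FPKM was 6.55, 0.23, 0.47 and 0.28 in WT1 to WT4 and 6.17, 24, 22.7 and 5.14 in KO1 to KO4. Prf1 FPKM was 2.49, 0, 0.03 and 0.05 in WT1 to WT4 and 3.30, 7.31, 6.01 and 1.63 in KO1 to KO4. Ifng FPKM was 2.49, 0, 0.12 and 0 in WT1 to WT4 and 3.59, 7.77, 6.11 and 2.15 in KO1 to KO4. All 3 genes were highest in KO2 and KO3, WT1 lay inside the TAM-KO range, and WT2 to WT4 held between 5 and 10 reads for Gzmb and at most 2 for Prf1 and Ifng. With WT1 none of the 3 passed edgeR's quasi-likelihood test (Benjamini-Hochberg adjusted p = 0.0744, 0.0912 and 0.102). The log2 fold changes were 3.11 (SE 0.97) for Gzmb, 2.74 (SE 0.97) for Prf1 and 2.94 (SE 1.04) for Ifng, with 4 of 4 TAM-KO libraries above WT2 to WT4 and 2, 3 and 3 above WT1. Without WT1 edgeR called all 3 higher, with log2 fold changes of 5.57 (SE 0.73), 7.11 (SE 0.85) and 6.66 (SE 0.88). The last 2, for Prf1 and Ifng, depend on a small added count. Gzmk, which encodes granzyme K, was listed at 0 in WT2 to WT4, at 0.49 FPKM in WT1 and at 1.38 ± 0.34 in TAM-KO (SD, n = 4). Xcl1, which encodes the chemokine lymphotactin, was at 0.65 ± 1.01 FPKM in TAM-WT and 3.5 ± 0.57 in TAM-KO (SD, n = 4), without overlap. Gzma, which encodes granzyme A, had at most 10 reads in any library and fell under the filter. Of the 6 effectors tested DESeq2 called 2 with WT1 included, Gzmk and Nkg7, and limma voom 6, as did edgeR without WT1.

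Among the NK cell receptors, Klrk1 encodes the activating receptor NKG2D, found on NK cells and CD8 T cells, and Klrd1 and Klrc1 encode CD94 and NKG2A, which form an inhibitory receptor together. Klrk1 FPKM was 2.87, 0.47, 0.69 and 1.70 in WT1 to WT4 and 3.26, 8.30, 8.22 and 3.41 in KO1 to KO4. Klrd1 FPKM was 1.55, 0.10, 0.98 and 1.44 in WT1 to WT4 and 2.15, 5.06, 4.39 and 0.48 in KO1 to KO4. Klrk1 did not overlap in FPKM, although KO1 lay close to WT1, and Klrd1 overlapped because KO4 fell below 3 of the TAM-WT libraries. In expected counts Klrk1 did overlap, with 126 in WT1 above 109 in KO1 and 76 in KO4, since its reads per FPKM ranged from 22.3 in KO4 to 43.9 in WT1, a 1.97-fold range. Klrd1 had the widest range within TAM-KO of the genes present in each TAM-KO library, 10.5-fold, and Foxp3 the narrowest, 1.23-fold. The log2 fold changes were 1.37 (SE 0.55) for Klrk1 on 8 libraries and 1.61 (SE 0.78) for Klrd1 on 7, and without WT1 2.16 (SE 0.48) and 1.86 (SE 0.90). Klrc1 was at 0.30 ± 0.46 FPKM in TAM-WT and 2.08 ± 1.58 in TAM-KO (SD, n = 4), and WT1 lay above KO1 and KO4. Ncr1 and Klrb1c were scarce in both groups. Ncr1, which encodes NKp46, had 2, 0, 0 and 0 reads in WT1 to WT4 and 4, 0, 3 and 0 in KO1 to KO4. Klrb1c, which encodes NK1.1, had 10, 3, 6 and 6 reads in WT1 to WT4 and 3, 5 and 2 in KO2 to KO4. Both fell under the filter, and in edgeR's fit without a filter neither was called (log2 fold change 0.78, SE 1.49, adjusted p 0.778 for Ncr1, and -0.96, SE 0.56, adjusted p 0.328 for Klrb1c, on 7 libraries). edgeR called 0 of the 3 genes tested, 2 with an unadjusted p under 0.05, DESeq2 called 0, limma voom 2, and edgeR without WT1 2.

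Gimap4 encodes a GTPase of the immunity-associated family that lymphocytes express. Gimap4 FPKM was 1.97, 0.22, 0.19 and 0.21 in WT1 to WT4 and 3.53, 7.80, 6.53 and 2.79 in KO1 to KO4. WT2 to WT4 were nearly equal, WT1 stood above them, and each TAM-KO library stood above WT1. The log2 fold change on 7 libraries was 2.96 (SE 0.73; edgeR's quasi-likelihood test with Benjamini-Hochberg adjusted p = 0.0437, higher in 4 of 4 TAM-KO libraries), and 4.58 (SE 0.44) without WT1.

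**Figure D2:**
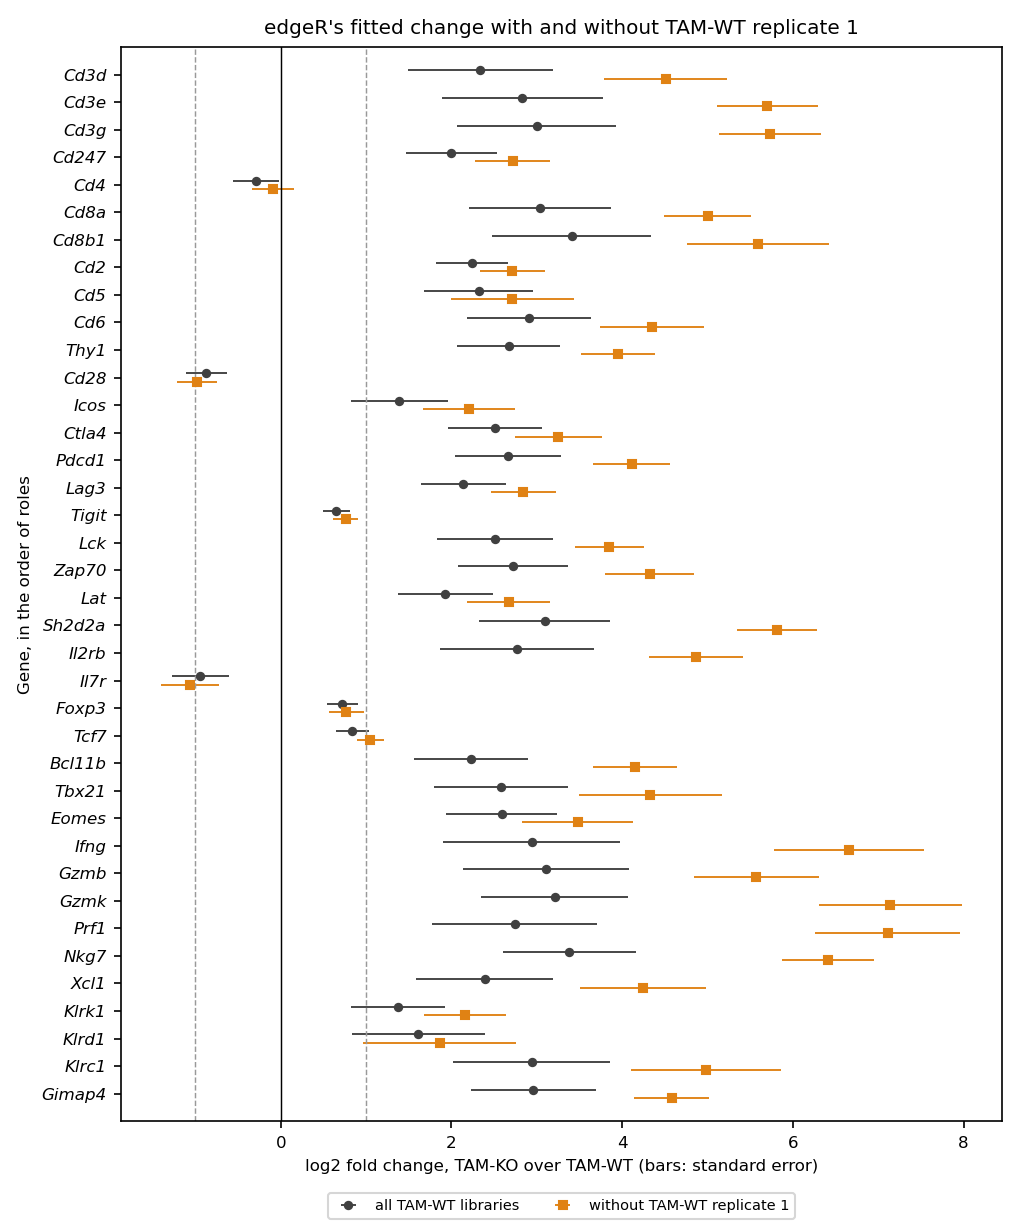
Log2 fold change of TAM-KO over TAM-WT for the 38 genes tested, by role, with bars of 1 SE, from the fit with WT1 and from the fit without it. With WT1, 11 genes pass both thresholds and 35 lie above 0, while Cd4, Cd28 and Il7r lie below it. Without WT1 the fits of genes with few or no reads in WT2 to WT4 depend on a small added count.

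Many of the 41 genes also had the same order of libraries within TAM-KO. Among the 39 genes measured in 8 of 8 libraries, KO2 was the highest TAM-KO library for 31 and KO4 the lowest for 34, ties not counted, where KO2 was highest for 29.3% and KO4 lowest for 34.4% of all 13154 genes with 8 values and above 0 in TAM-KO. KO2 and KO3 both exceeded KO1 and KO4 for 26, where 24.7% of all did. Of the TAM-KO libraries, KO1 was highest for Cd28, Ctla4, Gzmk and Ncr1, KO3 for Icos and Gzma, and KO4 for Il7r, and KO1 and KO2 were equal for Foxp3. KO4 was not the lowest for Klrk1, Il7r, Gzma and Bcl11b, and was equal to KO2 for Ncr1. Summed over these 39 genes, FPKM was 99.2, 32.1, 58.4 and 66.3 in WT1 to WT4 and 144, 243, 209 and 111 in KO1 to KO4. Il7r held a large part of the TAM-WT sums, and without it the sums were 69.6, 9.12, 12.5 and 13 in WT1 to WT4 and 123, 226, 189 and 83.8 in KO1 to KO4. For both sums every TAM-KO library was above every TAM-WT library, and without Il7r WT1 was nearer to KO4 than to WT2. The log2 ratio of the group means was 1.47 with Il7r and 2.57 without it. As summed CPM, counts scaled to the library and not to transcript length, it was 0.83 with Il7r. Against WT2 to WT4 alone it was 1.76 with Il7r and 3.75 without it, the last being a comparison added after the values were seen. By role, the summed effectors were 20.2, 0.33, 1.30 and 0.63 FPKM in WT1 to WT4 and 33.3, 72.6, 58.7 and 23 in KO1 to KO4. The summed receptor complex was 9.05, 0.87, 0.36 and 0.62 FPKM in WT1 to WT4 and 16.1, 27.1, 22.8 and 9.58 in KO1 to KO4.

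**Figure D3:**
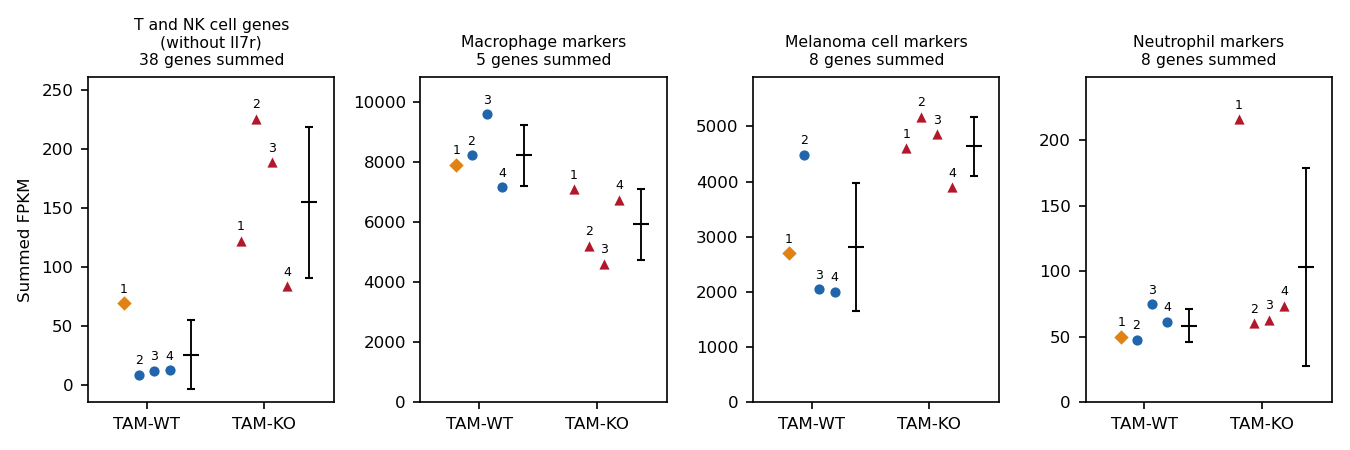
Summed FPKM in each library for 38 of the lymphocyte genes, Il7r left out, and for macrophage, melanoma cell and neutrophil markers, with a point per library and the group mean with a bar of 1 SD (n = 4). The lymphocyte genes are at 69.6 in WT1, between 9.12 and 13 in WT2 to WT4, and between 83.8 and 226 in TAM-KO.

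Other genes of T cells and NK cells were looked at through a list of 81 chosen by function, some of which macrophages also express at high levels. Summed over the 66 with a value in 8 of 8 libraries, FPKM was 1464, 1208, 1475 and 1420 in WT1 to WT4 and 1419, 1316, 1269 and 1286 in KO1 to KO4, a log2 ratio of the group means of -0.07. Most of this sum was Tyrobp, between 816 and 1038 FPKM, and Id2, between 168 and 439 FPKM. No value was listed for Il2 and Il4, 23 fell under the filter, and 56 were tested, 33 on 8 libraries. edgeR's quasi-likelihood test called 20 higher, where 1.41% of all genes tested were, and 0 lower, where 1.12% were, the latter with 2 genes at an unadjusted p under 0.05, S1pr1 and Id2. DESeq2 called 22 higher and 1 lower, and limma voom 31 and 2. Of the 79 genes with a value, every TAM-KO library was above every TAM-WT library for 32, against 10.7% of all measured genes, and WT1 was above WT2 to WT4 for 54, against 27.5%. Without WT1 30 were called higher, the 20 among them. Without WT4 5 were called and without KO1 13, and without WT3, KO2 or KO3 edgeR called 0, with 35, 32 and 34 genes at an unadjusted p under 0.05. For genes that the KO1 table lacks, leaving out KO1 changed only the adjusted p. Over all genes the fits without WT4 and KO1 called 164 and 226, against 314 in the main fit. Those without WT3, KO2 and KO3 called 59, 32 and 28.

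The Gimap genes encode immunity-associated GTPases. Of 8 listed, Gimap4 included, 7 were tested and edgeR called 7 higher, where 1.41% of all genes tested were. It called 7 without WT1, WT2 or KO4, 6 without KO1, 3 without WT4, and 0 without WT3, KO2 or KO3, each time with 7 at an unadjusted p under 0.05. Gimap4, the gene lost without KO1, had no KO1 value in the main fit either, so only its adjusted p changed. The fits without WT4, WT3, KO2 and KO3 called 164, 59, 32 and 28 of all genes, against 314 in the main fit. Gimap7 FPKM was 0.29, 0, 0 and 0 in WT1 to WT4 and 1.09, 1.75, 1.94 and 0.93 in KO1 to KO4. Gimap3 FPKM was 0.94, 0.12, 0.19 and 0.09 in WT1 to WT4 and 1.92, 3.89, 2.48 and 1.55 in KO1 to KO4. Gimap6 FPKM was 1.05, 0.51, 1.05 and 0.47 in WT1 to WT4 and 1.96, 3.43, 2.94 and 1.51 in KO1 to KO4. The groups did not overlap for these genes, and Gimap6, unlike the others, was as high in WT3 as in WT1. Their log2 fold changes on 8 libraries were 4.07 (SE 0.72), 2.77 (SE 0.57) and 1.56 (SE 0.35), with adjusted p-values by edgeR's quasi-likelihood test with Benjamini-Hochberg adjustment of 0.0182, 0.0251 and 0.0295 and 4 of 4 TAM-KO libraries higher. Without WT1 they were 7.57 (SE 0.90), 4.03 (SE 0.45) and 1.72 (SE 0.39). The first, for Gimap7 at 0 in WT2 to WT4, depends on a small added count. Gimap1, Gimap8 and Gimap9 rose with log2 fold changes of 2.51 (SE 0.53), 2.41 (SE 0.51) and 1.35 (SE 0.30), and without WT1 2.89 (SE 0.59), 3.18 (SE 0.49) and 1.42 (SE 0.34).

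The other genes called cover surface receptors, signalling and trafficking. Cd96, a receptor of T cells and NK cells for CD155, had FPKM of 0.28, 0, 0.03 and 0.06 in WT1 to WT4 and 0.87, 1.72, 1.52 and 0.61 in KO1 to KO4. Tox, a nuclear factor found in chronically stimulated T cells, had FPKM of 0.76, 0, 0 and 0.05 in WT1 to WT4 and 1.51, 2.30, 2.00 and 1.28 in KO1 to KO4. Il12rb1, a chain of the IL-12 receptor, had FPKM of 2.99, 0.70, 0.76 and 1.16 in WT1 to WT4 and 3.99, 7.10, 8.33 and 3.97 in KO1 to KO4. None of these 3 overlapped between the groups, and the log2 fold changes were 3.53 (SE 0.65), 3.06 (SE 0.79) and 2.06 (SE 0.48), and without WT1 4.99 (SE 0.69), 6.1 (SE 0.60) and 2.72 (SE 0.33). The costimulatory receptors Cd27 and Tnfrsf18 rose by log2 fold changes of 2.58 (SE 0.68) and 1.87 (SE 0.47), and Cd226, which shares its ligand with Tigit, by 1.39 (SE 0.36). Cxcr6, a chemokine receptor, rose by 2.43 (SE 0.61), and S1pr5, a receptor by which NK cells leave tissue, by 2.03 (SE 0.39), each on the log2 scale. Skap1, Ubash3a, Ptprcap and Ikzf3, which act in or regulate lymphocyte signalling and transcription, rose by log2 fold changes of 2.29 (SE 0.40), 2.45 (SE 0.57), 2.47 (SE 0.55) and 2.35 (SE 0.49). Tnfsf10, which encodes the death ligand TRAIL, rose by 1.59 (SE 0.39) on the log2 scale. Without WT1 the log2 fold changes were 4.45 (SE 0.52) for Cd27, 2.69 (SE 0.38) for Tnfrsf18, 1.8 (SE 0.34) for Cd226, 3.65 (SE 0.51) for Cxcr6 and 2.38 (SE 0.43) for S1pr5. They were 2.92 (SE 0.37) for Skap1, 3.4 (SE 0.59) for Ubash3a, 3.58 (SE 0.44) for Ptprcap, 3.23 (SE 0.37) for Ikzf3 and 1.84 (SE 0.43) for Tnfsf10. Cd27 and Cd226 were the 2 called genes whose groups overlapped.

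The Klr family, with 15 genes listed across both lists, had 4 tested and 0 called by edgeR's quasi-likelihood test, where 1.41% of all genes tested were called higher. edgeR without WT1 called 2 higher, Klrc1 and Klrk1. With WT1, of the 4, 3 had an unadjusted p under 0.05, DESeq2 called 1 and limma voom 3. None of the 5 Klra genes, which encode the Ly49 receptors of mouse NK cells, passed the filter, and none exceeded 4 reads in any library.

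A list chosen by function, here called ligands, held binding partners of receptors and cytokines among the 41 genes and also Il12b and Il18, cytokine genes whose receptors are not among the 41. Of 24 listed, 22 were tested, and edgeR called 1 higher and 1 lower, where 1.41% and 1.12% of all genes tested were. DESeq2 called 1 higher and 2 lower, and limma voom 1 and 3. Xcr1, the receptor for the Xcl1 product and a marker of cross-presenting dendritic cells, had FPKM of 0.34, 0.10, 0.06 and 0.22 in WT1 to WT4 and 0.52, 0.92, 0.83 and 0.37 in KO1 to KO4. Il12b, which encodes the p40 chain of IL-12, a cytokine that induces Ifng, had FPKM of 1.49, 0.59, 1.02 and 1.08 in WT1 to WT4 and 0.35, 0.21 and 0.42 in KO2 to KO4. Xcr1 was lowest in WT2 and WT3 and Il12b lowest in the TAM-KO libraries, and neither gene's groups overlapped. The log2 fold changes were 1.78 (SE 0.46) for Xcr1 on 8 libraries and -1.77 (SE 0.39) for Il12b on 7, and without WT1 2.26 (SE 0.48) and -1.58 (SE 0.39). Their adjusted p-values by edgeR's quasi-likelihood test with Benjamini-Hochberg adjustment were 0.0435, higher in 4 of 4 TAM-KO libraries, and 0.0329, lower in 3 of 3. Cd80 and Alcam, ligands of the Ctla4 and Cd28 products and of the Cd6 product, passed on adjusted p alone with log2 fold changes of -0.75 (SE 0.16) and -0.77 (SE 0.19), under 2-fold. Without KO1, which the main fit of Il12b also lacked, Il12b alone was called. Without WT3, WT4, KO2 or KO3 edgeR called 0 ligands, with 9, 10, 8 and 8 at an unadjusted p under 0.05, and without WT1, WT2 or KO4 it called 3. The fits without WT3, WT4, KO2 and KO3 called 59, 164, 32 and 28 of all genes, against 314 in the main fit.

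Markers of other cell types were summed in the same libraries, over the genes of each list with a value in all 8. The macrophage list, 14 of 14 detected, summed to 7906, 8219, 9584 and 7166 FPKM in WT1 to WT4 and 7102, 5219, 4613 and 6746 in KO1 to KO4 over 5 genes, most of it Lyz2. KO2 and KO3, highest for most lymphocyte genes, were lowest for this sum. Of the 14 genes tested edgeR called 1 lower and 0 higher, with 4 lower and 1 higher at an unadjusted p under 0.05, and DESeq2 and limma voom also called 1 lower and 0 higher. In each case it was Cd14, the lipopolysaccharide coreceptor, with a log2 fold change by edgeR of -1.49 (SE 0.34) on 7 libraries. Melanoma cell markers, 8 of 8 detected, summed to 2704, 4484, 2055 and 2004 FPKM in WT1 to WT4 and 4610, 5178, 4856 and 3904 in KO1 to KO4. Pmel, a melanosome protein, was their most abundant gene, between 530 FPKM in WT4 and 1478 FPKM in KO2. This sum was higher in every TAM-KO library than in WT1, WT3 and WT4, but WT2 lay above KO4. edgeR called 0 of the 8, with 7 at an unadjusted p under 0.05, DESeq2 called 0 and limma voom 1. Dendritic cell markers, 10 of 10 detected, summed to 54.6, 40.8, 35.5 and 42.6 FPKM in WT1 to WT4 and 66.7, 86.4, 81.5 and 63.4 in KO1 to KO4, most of it Cadm1. Like the lymphocyte genes, this sum was highest in KO2 and KO3 and did not overlap between the groups. Of the 10 dendritic cell genes tested edgeR called 1 higher, Xcr1, and 0 lower, with 3 higher and 1 lower at an unadjusted p under 0.05, and by adjusted p alone 2 were higher. The lower gene, Cd209a, which encodes a mouse relative of DC-SIGN, had a log2 fold change of -1.01 (SE 0.30) on 7 libraries, and DESeq2 and limma voom called it lower and Xcr1 higher.

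Neutrophil markers, 7 of 10 detected with more than 3 reads, summed to 50.2, 47.7, 74.8 and 61.7 FPKM in WT1 to WT4 and 216, 60.6, 63.0 and 73.9 in KO1 to KO4. Ngp was at 0 in every library with a value, Ly6g and Camp had at most 3 reads, and Mmp8 was the most abundant by its mean. S100a8, a calcium-binding protein of neutrophils, had 169 reads in KO1 and at most 37 in any other library. It was called higher by edgeR, by limma on log2(FPKM + 1) and, with S100a9, by DESeq2, and was not called by limma voom or by edgeR without WT1. Mmp8, a collagenase, had a log2 fold change of -1.22 (SE 0.35) on 7 libraries, and was called lower by DESeq2, limma voom and edgeR without WT1 but not by edgeR with it. B cell markers, 8 of 10 detected, summed to 6.95, 3.54, 4.12 and 4.78 FPKM in WT1 to WT4 and 5.25, 10.3, 10.4 and 5.47 in KO1 to KO4. Blk and Cr2 had at most 3 reads in each library, and Cd22, measured without KO1, was the most abundant gene. Mast cell and basophil markers, 5 of 9 with a value and 2 detected, summed to 0.66, 0.73, 0.81 and 0.61 FPKM in WT1 to WT4 and 3.29, 0.71, 0.88 and 0.93 in KO1 to KO4, most of it Hdc. Mcpt8 was at 0 in every library with a value, and Cpa3 and Ms4a2 had at most 3 reads. Plasmacytoid dendritic cell markers, 8 of 8 detected and most of them Tcf4, summed to 9.01, 8.54, 8.75 and 11.3 FPKM in WT1 to WT4 and 10.6, 11.2, 10.3 and 9.55 in KO1 to KO4. Endothelial markers, 6 of 8 detected with Egfl7 most abundant and Tek and Cldn5 at no more than 3 reads, summed to 9.57, 12.8, 8.61 and 10.7 FPKM in WT1 to WT4 and 13.3, 16.6, 15.1 and 11.1 in KO1 to KO4. Fibroblast markers, 8 of 8 detected with Col1a1 most abundant, summed to 1.01, 2.95, 1.33 and 2.08 FPKM in WT1 to WT4 and 0.95, 1.41, 1.69 and 1.78 in KO1 to KO4. The B cell, plasmacytoid dendritic cell, mast cell and basophil, endothelial and fibroblast lists, with 4, 6, 1, 6 and 5 genes tested, had 0 called by edgeR and 1, 0, 0, 1 and 1 at an unadjusted p under 0.05. DESeq2 called 0, 0, 0, 1 and 0 of them, and limma voom 0, 0, 0, 0 and 1. The part of these other cell types in the level of the lymphocyte genes was not tested.

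By position, the 41 genes lie on 15 chromosomes of GRCm38.p6, with 9 on chromosome 6, 7 on chromosome 1 and 5 on chromosome 9. Cd3g, Cd3d and Cd3e are neighbours on chromosome 9, Cd3g and Cd3d 1337 bases apart, with 0 protein-coding genes between neighbours. Cd8b1 and Cd8a are also neighbours, 35934 bases apart, and so are Ctla4 and Icos, 44940 bases apart. Fitted changes of neighbours did not always share a sign. Cd4 and Lag3 lie 16111 bases apart with 0 protein-coding genes between them, and Lag3 rose while Cd4 did not pass the test. Cd28 and Ctla4 are neighbours, 135665 bases apart, with log2 fold changes of opposite sign, -0.87 (SE 0.24) and 2.51 (SE 0.55). Among the genes called, Nkg7 (gene ID 72310) lies at chr7:43437138-43438246, Sh2d2a (27371) at chr3:87846755-87855722, Gimap4 (107526) at chr6:48684578-48692062 and Cd6 (12511) at chr19:10789339-10830062. Zap70 (22637) lies at chr1:36761798-36782821, Thy1 (21838) at chr9:44043384-44048579, Pdcd1 (18566) at chr1:94038305-94052553 and Eomes (13813) at chr9:118478186-118486132. Ctla4 (12477) lies at chr1:60909025-60915832, Cd2 (12481) at chr3:101275908-101287939 and Lag3 (16768) at chr6:124904359-124912434.

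The sequence before the starts of the lymphocyte genes was searched, where available, for binding motifs of factors known in lymphocytes. RefSeq promoter sequences of GRCm38.p6 were matched by symbol for 30 of the 41 genes, with 36 windows of 250 bases before the start, some of which overlap. Both strands were searched for 6 strings of letters, none of which contains another. TGTGGT, the core bound by RUNX factors, was in 14 of the 36 windows (38.9%) and in 14.0% of all 32851 windows. AGGAAGT, an ETS factor motif, was in 10 windows (27.8%) and in 7.69% of all, and GGTGTGA, a T-box motif, in 3 windows (8.33%) and in 3.33% of all. TGACGTCA, the cyclic AMP response element, and CACGTG, an E-box, were each in 1 window (2.78%), and in 1.55% and 6.02% of all windows. GGACTTTCC, an NF-kB motif, was in 0 of the 36 and in 0.283% of all windows. These shares are descriptions of letters and were not tested, and a match is not a binding site.

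The windows of 2 called genes, Nkg7 and Gimap4, and of Gzmb, chosen after its values were seen, are printed to show where the RUNX letters fall. Of the genes called, only Zap70, Nkg7 and Gimap4 held these letters in a window. The other genes that held them, Gzma, Gzmb, Klrb1c, Klrc1, Klrk1, Lck, Ncr1, Prf1, Tigit and Xcl1, were not called. Gzma, Ncr1 and Klrb1c among them fell under the filter on low counts. Capitals mark TGTGGT or its other strand ACCACA. Nkg7 is on the plus strand at chr7:43436888-43437137, Gimap4 on the plus strand at chr6:48684328-48684577 and Gzmb on the minus strand at chr14:56262335-56262584, all GRCm38.p6 from RefSeq and written 5′ to 3′.
Nkg7: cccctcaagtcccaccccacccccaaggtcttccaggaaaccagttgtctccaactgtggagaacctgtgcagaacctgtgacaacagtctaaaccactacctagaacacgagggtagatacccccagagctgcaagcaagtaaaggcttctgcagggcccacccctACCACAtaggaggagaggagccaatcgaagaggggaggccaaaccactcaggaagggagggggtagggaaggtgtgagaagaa
Gimap4: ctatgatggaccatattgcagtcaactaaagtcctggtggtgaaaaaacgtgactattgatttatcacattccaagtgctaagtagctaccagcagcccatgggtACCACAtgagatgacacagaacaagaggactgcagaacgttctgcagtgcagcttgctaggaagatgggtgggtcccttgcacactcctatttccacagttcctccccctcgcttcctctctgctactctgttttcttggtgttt
Gzmb: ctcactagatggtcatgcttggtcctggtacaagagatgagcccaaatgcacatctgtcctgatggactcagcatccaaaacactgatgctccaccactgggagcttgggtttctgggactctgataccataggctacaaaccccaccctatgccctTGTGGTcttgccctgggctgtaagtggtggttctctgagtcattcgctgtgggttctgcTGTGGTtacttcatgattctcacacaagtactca
Nkg7 and Gimap4 hold 1 match each and Gzmb holds 2.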

How the data were processed

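RNA of sorted TAMs from 4 TAM-WT and 4 TAM-KO mice was sequenced by the authors on the BGISEQ platform. Per the submitters' processing notes, HISAT2 2.0.4, Bowtie2 2.2.5 and RSEM 1.2.12 were used with build GRCm38.p6. Expected counts, RSEM's fractional estimates of reads per gene, are what the authors deposited as read counts, with no scaling applied. Deposited FPKM values were scaled with RSEM by transcript length and by the mapped fragments of a library. The authors' table of the whole series also holds a log2 ratio, group averages, p-values and q-values of their own comparison, none of which was used, and 8 per-sample TPM columns, which were not used either.

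Genes were matched by symbol. The KO1 table lacks 5311 genes, and 629 values displaced beside that gap were not used. The series table gave KO1 for 1188 of these genes. In the 2808 genes that both tables hold, KO1 was equal within 0.01 counts. These filled values enter FPKM descriptions but not the test. Since that table was selected for differing genes, which members have a KO1 value is not independent of their difference.

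Rounded counts entered edgeR 4.0.16 under R 4.3.3 (TMM, filterByExpr, quasi-likelihood F-test), genes with 8 values on 8 libraries (9396) and the others on 7 (3016), without covariates. Benjamini-Hochberg adjustment ran over both sets together. The script was tested on simulated data with the same dispersion for all genes and no library set apart. That test does not cover genes with few reads in WT2 to WT4. DESeq2 1.42.0 and limma 3.58.1 were used for alternatives, as were other filters and leaving out each library. Limma voom was always run with sample quality weights, so it differs from edgeR both in the test and in the weight of each library. SE is the fitted log2 fold change divided by the root of the F statistic. Genes with at most 3 reads are called near 0.

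The members and lists were chosen with earlier results of these data known. Every member is named. Values in every library are given, in each role, for the members called and otherwise for the 2 with the highest mean FPKM, and of the other lymphocyte genes and ligands the called ones are named, except 1 that is not reported here. Of each marker list the most abundant gene and the defining genes near 0 are named. The values of Cd4, Cd28, Tigit, Tcf7, Foxp3, Gzmb, Prf1, Ifng, Ncr1 and Klrb1c, and the remarks on Cd14, S100a8, Mmp8, Cd209a, S1pr1, Id2, Cd80 and Alcam, were chosen after their values were seen, as were the shares of genes by order of the TAM-KO libraries. Gene positions are from RefSeq GRCm38.p6.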

Additional observations from a re-analysis of the deposited data

Results flagged for a closer look

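Within each group of 4 libraries, the gap between the most extreme library and its nearest neighbour was divided by the range of the group. A ratio above Dixon's critical value was taken as a library far from the others, which chance gives in about 1 in 20 groups. Among 104 groups looked at, 22 passed, and 18 of them were TAM-WT groups of single genes in which WT1 was the highest library. The genes share WT1, so these are not separate events.

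In the T cell receptor complex and coreceptors the ratio was 0.883 for Cd3d, 0.978 for Cd3e, 0.982 for Cd3g and 0.947 for Cd8a. In adhesion and signaling molecules it was 0.837 for Cd6, 0.86 for Thy1, 0.936 for Lck, 0.838 for Zap70 and 0.967 for Sh2d2a. For Il2rb it was 0.919 and for Bcl11b 0.867. In the effectors it was 0.952 for Ifng, 0.962 for Gzmb, 1.0 for Gzmk, which was listed at 0 in the other TAM-WT libraries, 0.98 for Prf1 and 0.981 for Nkg7. For Klrc1 it was 0.859 and for Gimap4 0.983. The summed level of the lymphocyte genes without Il7r gave 0.935 in TAM-WT, again with WT1 highest.

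The summed plasmacytoid dendritic cell markers gave 0.832 in TAM-WT, with WT4 highest. In TAM-KO, KO1 was far above KO2 to KO4 for the summed neutrophil markers (0.915) and for the summed mast cell and basophil markers (0.915).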

How the results depend on the processing

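The count of 11 lymphocyte genes called was 11 with DESeq2's size factors, 15 without a filter, 16 with KO1 filled and 14 with no limit on fold or with a limit of 1.5. It was 18 with DESeq2's Wald test, 31 with limma voom, 1 of them lower, 25 and 27 with limma on log2 FPKM with pseudocounts of 1 and 0.1, and 24 with replicate number as a block. Over all genes the main fit called 314 of 12412. DESeq2's size factors gave 310 of 12412, no filter 359 of 16514 and KO1 filled 274 of 12396. Of 12412 genes, the Wald test called 438, limma voom 653, limma on log2 FPKM 200 and 362, and the block 314. For genes fitted on 7 libraries, without KO1, the block left WT1 with no partner, so WT1 did not inform their fold changes. Cd3g had a log2 fold change of 5.7 with the block, 5.73 without WT1 and 3.0 in the main fit. For Ifng these were 6.66, 6.66 and 2.94, and for Prf1, fitted on 8 libraries, 3.48, 7.11 and 2.74. The block counts, here and for the ligands, therefore mix blocking with the loss of WT1. Replicate numbers do not pair the samples: deviations of KO and WT libraries of one number correlated at -0.41, 0.02, -0.29 and 0.29. Requiring at least 10 counts in every library left 9 of the lymphocyte genes tested. The count of lymphocyte genes called was then 2, where 210 of all 11763 genes were called. Leaving out single libraries gave 0 to 31. With KO1 filled and WT1 left out, an alternative chosen after seeing the data, it was 31, where 403 of all 12496 genes were called. The count of 20 other lymphocyte genes was 33 with limma voom, 2 of them lower, 13 with limma on log2(FPKM + 1), 1 of them lower, 4 under the 10-count filter, which tested 30, and 0 to 30 without single libraries. The count of 2 ligands was 4 with limma voom, 4 with no limit on fold or one of 1.5, and 1, lower, with KO1 filled, and 1, higher, with KO1 filled and WT1 left out. It was 0 with limma on log2(FPKM + 1), under the 10-count filter and with the replicate block, with 11, 7 and 10 ligands at an unadjusted p under 0.05, and 0 to 3 without single libraries. The summed level, a log2 ratio of 1.47, was 2.57 without Il7r, 3.75 without Il7r and WT1 (chosen after seeing the data), 0.83 as CPM, and 1.24 to 1.76 without single libraries. For log2 fold changes of single genes, 472 values kept direction and side of the threshold, 128 newly passed it, 55 no longer did, and 0 reversed. Apart from fewer genes tested or fewer libraries, the cause was not tested. With at most 3 reads a library in WT2 to WT4 for many genes, depth limits how low the TAM-WT level can be said to be.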
